A study of Mus musculus with 10 samples.

Results

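The 10 genes described here encode the classical MHC class I molecule and the machinery that supplies it with peptides: the heavy chains H2-K1 and H2-D1, their light chain B2m, the peptide transporter subunits Tap1 and Tap2, the loading factor Tapbp (tapasin), the immunoproteasome subunits Psmb8, Psmb9 and Psmb10, and Nlrc5, the transactivator of class I genes. They were chosen by name as a pathway, and all 10 were found among the 55487 genes of the count table and among the 13740 genes that passed the filter on low counts (a normalised read count, CPM, above 1 in at least 3 libraries). Their levels were compared between ARG1+ and ARG1- cells sorted from the inflamed mouse spinal cord.

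Nearly all nucleated cells use this pathway to show samples of its own proteins to CD8+ T cells. Proteasomes cut proteins into peptides, the TAP transporter moves the peptides into the endoplasmic reticulum, and tapasin and its partners load them onto a heavy chain paired with β2-microglobulin. Interferons, above all interferon-γ, raise the transcription of these genes and replace the catalytic subunits of the constitutive proteasome with those of the immunoproteasome. NLRC5 does not bind DNA by itself and acts at class I promoters together with RFX, CREB and NF-Y factors.

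All samples came from 5 male mice carrying the Arg1tm1Lky allele, an eYFP reporter for arginase 1, on a C57BL/6 background. The animals, aged 8 to 12 weeks per the study's methods, had experimental autoimmune encephalomyelitis (EAE, induced with a myelin oligodendrocyte glycoprotein peptide, complete Freund's adjuvant and pertussis toxin) and were at peak disease. From the spinal cord of each animal, viable CD3-Ly6G-CD45+CX3CR1+ cells were sorted into a YFP+ fraction (ARG1+, 200000 cells) and a YFP- fraction (ARG1-, 100000 cells), giving 5 libraries per group from the same animals, which are named m2, m6, m234, m235 and m236 in the sample titles. This gate takes CX3CR1+ cells as a whole and does not separate monocyte-derived cells from microglia, CNS-associated macrophages or CX3CR1+ dendritic cells, and the number of sorted cells differed with the group.

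The libraries held 28870482 to 33826355 counts in the ARG1+ group and 8396863 to 35455643 in the ARG1- group, in which animal m234 had the lowest total. Even there, the least abundant of the 10 genes, Psmb9, had 975 counts. Arg1, the gene that defined the sort, reached 814 ± 174 CPM (SD, n = 5) in ARG1+ libraries and 18.4 ± 4.96 CPM in ARG1- libraries, with no overlap. Ptprc, which encodes CD45, stood at 595 to 827 CPM over all 10 libraries, and Cx3cr1 at 43.9 to 233 CPM in ARG1+ and 102 to 565 CPM in ARG1- libraries, while Cd3e and Ly6g stayed below 1 CPM in every library. Because these are bulk samples, fewer cells of a type and less RNA per cell cannot be told apart in any of the values that follow.

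The MHC region of chromosome 17 (GRCm38) holds 7 of the genes: H2-K1 at chr17:33996017-34000347 on the reverse strand, Tapbp at chr17:33915899-33929292, Psmb9 at chr17:34181987-34187764 on the reverse strand, Tap1 at chr17:34187553-34197225, Psmb8 at chr17:34197721-34201454, Tap2 at chr17:34203527-34216321 and H2-D1 at chr17:35262730-35267499. B2m lies at chr2:122147686-122153083, Psmb10 at chr8:105935735-105938444 on the reverse strand and Nlrc5 at chr8:94434356-94527272. The heavy chains are near copies of each other, which bears on how far reads of 50 bases can be assigned to them. The longest run of bases shared by coding transcripts of H2-K1 and H2-D1 was 91 bases long and lay within the coding part of exon 4 in each gene (chr17:33997343-33997433 on the reverse strand and chr17:35265911-35266001 on the forward strand), and it is printed here because a read from it fits both genes equally:
Run shared by H2-K1 and H2-D1: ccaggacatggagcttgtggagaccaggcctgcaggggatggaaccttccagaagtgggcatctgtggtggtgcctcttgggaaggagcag
Of the 50-base stretches of H2-K1, 7.90% also occurred in another annotated transcript (6.24% in H2-D1), and of those of H2-D1, 14.3% did (7.40% in H2-Q1). No stretch of B2m, Psmb10 or Nlrc5 was shared.

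The upstream sequences of the light chain and of a heavy chain are shown because they differ in which of 3 fixed letter patterns they match. In the 250 bases before the RefSeq transcription start (GRCm38.p6), capitals mark matches, on either strand, to GAAANNGAA (an IRF element), TTCNNNGAA (a GAS, an interferon-γ-activated site) or GGGNNTTCC (a κB form):
H2-K1, chr17:34000348-34000597, reverse strand: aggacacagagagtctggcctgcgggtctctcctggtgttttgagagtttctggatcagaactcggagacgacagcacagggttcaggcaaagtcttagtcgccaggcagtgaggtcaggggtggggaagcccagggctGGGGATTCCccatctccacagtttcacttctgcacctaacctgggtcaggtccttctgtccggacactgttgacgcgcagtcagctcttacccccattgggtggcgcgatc
B2m, chr2:122147437-122147686, forward strand: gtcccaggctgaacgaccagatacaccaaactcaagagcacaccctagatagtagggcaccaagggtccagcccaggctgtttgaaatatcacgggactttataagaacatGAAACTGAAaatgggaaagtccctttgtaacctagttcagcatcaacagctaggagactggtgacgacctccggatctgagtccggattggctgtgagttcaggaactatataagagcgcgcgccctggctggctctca
The κB match of H2-K1 began 111 bases before the start and lay in a run of 47 bases that also occurred in the H2-D1 window, and the IRF match of B2m began 139 bases before the start. These windows were available for 8 of the 10 genes, Tap2 and Nlrc5 being the exceptions. Among the other genes, the Psmb8 window held 1 GAS match, and those of Tap1, Psmb9, Psmb10 and Tapbp held none of the 3 motifs. The windows of H2-D1, Psmb8, Tap1, Psmb9 and Tapbp lay with all 250 bases in annotated exons of GENCODE M21. Over all 32851 windows of this length, 7.13% held the IRF element, 7.02% the GAS and 4.98% the κB form. A match is a string of letters and not a measured binding site. Other forms of these elements were not searched, so a window without a match may still hold such an element.

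The levels of the 10 genes differed little between the groups, and in different directions for different steps of the pathway. By CPM on TMM-scaled library sizes, the class I chains lay slightly above their ARG1- counterparts in ARG1+ cells of all 5 animals. For H2-K1 the difference was only 0.0023 log2 CPM in m236, and its sign in m2 and m236 depended on that scaling. Nlrc5, both TAP subunits, Psmb8 and Psmb9 lay below in all 5. By edgeR's quasi-likelihood test with Benjamini-Hochberg adjustment over all 13740 genes, and no term for the animal, Tap2 and Nlrc5 were lower in ARG1+ cells at an adjusted p below 0.05, and none of the 10 was higher. Among all genes tested, 6.15% were called lower and 6.82% higher by the same rule. With the further limit of 1 log2 unit that the study used, which 1.45% of all genes passed, none of the 10 was called.

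Since both fractions came from the same animals, the fit was also made with the animal as a replicate block. It called 6 of the 10 genes lower (Tap1, Tap2, Psmb8, Psmb9, Psmb10 and Nlrc5) and 2 higher (H2-D1 and B2m), beside 18.3% and 16.8% of all genes. The median log2 fold change of the 10 genes was -0.20, and that of all genes tested was -0.0022. The share of all genes lying lower in all 5 animals was 21%, and 19.9% lay higher in all 5, beside 5 and 3 of the 10 genes.

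**Figure D1:**
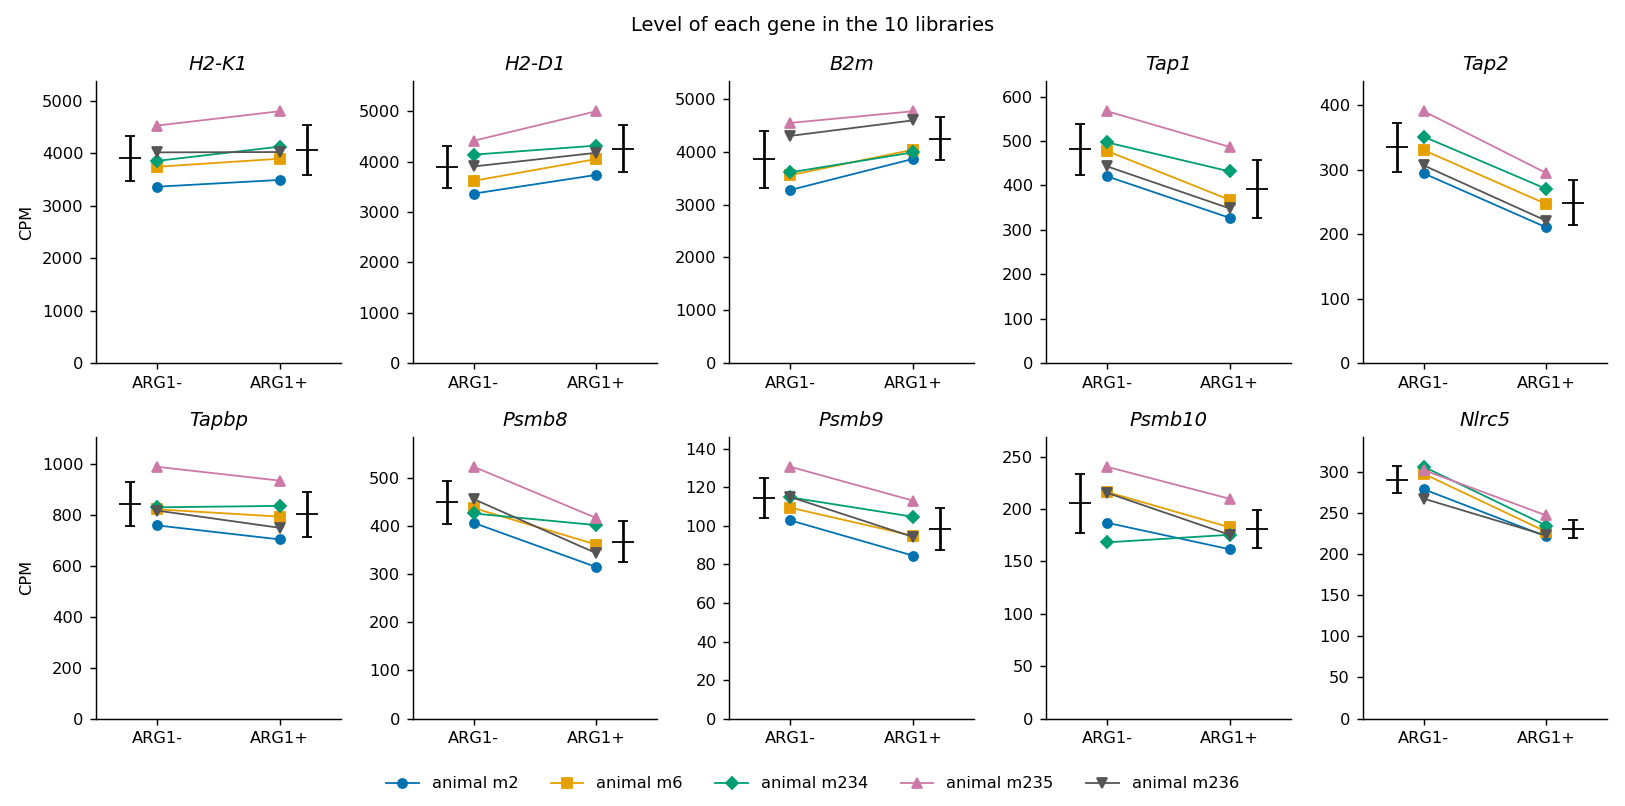
Level of each of the 10 genes (CPM on TMM-scaled library sizes, linear axis from 0) in the ARG1- (left) and ARG1+ (right) library of each animal, joined by a line, with the mean and SD of each group (n = 5) in black beside the points. The lines of H2-K1, H2-D1 and B2m run upward in all 5 animals, that of H2-K1 in m236 being nearly flat. Those of Tap1, Tap2, Psmb8, Psmb9 and Nlrc5 run downward in all 5.

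The heavy chains and β2-microglobulin form the class I molecule at the cell surface. H2-K1 stood at 3358, 3738, 3850, 4523 and 4012 CPM in the ARG1- libraries of m2, m6, m234, m235 and m236, and at 3487, 3891, 4121, 4795 and 4019 CPM in the ARG1+ libraries of the same animals. The groups overlapped almost completely, with the highest values in m235 and the lowest in m2 on both sides. Within animals the difference ran from 0.0023 (m236) to 0.098 (m234) on the log2 CPM scale. With total counts as library sizes, its sign was reversed in m236 and, barely, in m2. H2-K1 averaged 4063 ± 475 CPM in the ARG1+ group and 3896 ± 425 CPM in the ARG1- group (mean ± SD over 5 libraries), and its log2 fold change was 0.06 with a standard error of 0.0995 and an adjusted p of 0.725 by edgeR's quasi-likelihood test. With the replicate block, its adjusted p was 0.283.

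H2-D1 stood at 3367, 3621, 4141, 4417 and 3906 CPM in ARG1- and at 3738, 4054, 4320, 5003 and 4178 CPM in ARG1+ libraries, in the same order of animals. Each animal's ARG1+ library held the higher value, by 0.06 to 0.18 on the log2 CPM scale, although the group ranges overlapped. B2m read 3278, 3559, 3612, 4548 and 4303 CPM in ARG1- and 3866, 4040, 3989, 4769 and 4596 CPM in ARG1+ libraries, and its differences within animals ran from 0.07 to 0.24. Without the block, H2-D1 (log2 fold change 0.13) and B2m (0.14) each had an adjusted p of 0.393. In the edgeR fit with the block these p-values were 0.0338 and 0.0262, whereas limma-trend with the block called neither gene.

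Per kilobase of exon, which allows levels to be compared between genes, B2m was the most abundant of the 10, at 4944 CPM per kb in ARG1+ and 4488 in ARG1- cells. H2-K1 followed at 2455 and 2354, and H2-D1 at 2026 and 1851. The next gene, Tapbp, reached 277 and 291 CPM per kb, Psmb8 226 and 276, Psmb10 138 and 157 and Tap1 133 and 163. Psmb9, at 72.7 and 84.7, and Tap2, at 72.2 and 97.1, were close to each other, and Nlrc5 was lowest at 28.4 and 35.7 CPM per kb.

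TAP1 and TAP2 form the 2 parts of the transporter that carries peptides into the endoplasmic reticulum. Tap2 stood at 294.1, 330, 351, 390 and 306 CPM in the ARG1- libraries of m2, m6, m234, m235 and m236 and at 210, 247, 270.0, 294.6 and 221 CPM in the ARG1+ libraries. Every ARG1+ value but that of m235 lay below every ARG1- value, and m235 in ARG1+ exceeded m2 in ARG1- by less than 1 CPM. Tap2 fell by 0.43 on the log2 scale (standard error 0.103), with an adjusted p of 0.0198 by edgeR's quasi-likelihood test and 1.51e-05 with the block. The call without the block was lost when the ARG1+ library of m2 was left out (adjusted p = 0.0507 by the same test) and when m2, m6 or m236 was left out whole (0.0504, 0.0899 and 0.0602).

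Tap1 read 421, 478, 497, 567 and 443 CPM in ARG1- and 327, 368, 432, 487 and 348 CPM in ARG1+ libraries. It was lower in the ARG1+ library of each animal, by 0.20 to 0.38 on the log2 CPM scale, and the group ranges overlapped, since ARG1+ m235 and m234 exceeded ARG1- m2. The fitted log2 difference of Tap1 was -0.29 (standard error 0.115) with an adjusted p of 0.109, and 3.58e-04 with the block, by edgeR's quasi-likelihood test. Without the ARG1+ library of m235, the p without the block was 0.0353.

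Tapasin, the product of Tapbp, holds empty class I molecules next to the transporter. Tapbp stood at 759, 822, 830, 989 and 817 CPM in ARG1- and 704, 793, 835.5, 935 and 749 CPM in ARG1+ libraries, lower in 4 animals and higher in m234. Its log2 fold change was -0.07 (standard error 0.0901), with an adjusted p of 0.642, or 0.163 with the block, by edgeR's quasi-likelihood test. Of the 50-base stretches of Tapbp, 20.7% occurred in another transcript, mostly in Gm19412 on the opposite strand. Since no source used here states whether counting used strand, for Tapbp, for Tap2 (9.90%, with Gm15821) and for the neighbours Tap1 and Psmb9 (212 overlapping exon bases on opposite strands) it is open how reads from overlapping exons were assigned.

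The immunoproteasome subunits Psmb8 (β5i), Psmb9 (β1i) and Psmb10 (β2i) take the catalytic places of Psmb5, Psmb6 and Psmb7. Psmb8 stood at 406, 437, 426, 523 and 455 CPM in the ARG1- libraries of m2, m6, m234, m235 and m236 and at 315, 361, 402, 416 and 343 CPM in the ARG1+ libraries. It was lower in ARG1+ cells of all 5 animals, least in m234, and only m235 in ARG1+ exceeded the lowest ARG1- value. Its log2 fold change was -0.29 (standard error 0.0898) with an adjusted p of 0.0529 by edgeR's quasi-likelihood test, and 0.00124 with the block. DESeq2 (adjusted p = 0.0169) and limma-trend (0.0493) called it lower without the block.

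Psmb9 read 103, 109, 115, 131 and 115 CPM in ARG1- and 84.6, 94.9, 105, 113 and 94.3 CPM in ARG1+ libraries. Within animals it was lower by 0.13 to 0.29 on the log2 CPM scale, and the fitted log2 fold change of -0.22 had an adjusted p of 0.102 without and 0.00108 with the block (edgeR). Psmb10 read 187, 216, 168, 240 and 215 CPM in ARG1- and 162, 183, 175, 210 and 175 CPM in ARG1+ libraries, lower in 4 animals and higher in m234, whose ARG1- library was the shallowest. The log2 fold change of Psmb10 was -0.18, with an adjusted p of 0.225 without and 0.0179 with the block (edgeR).

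**Figure D2:**
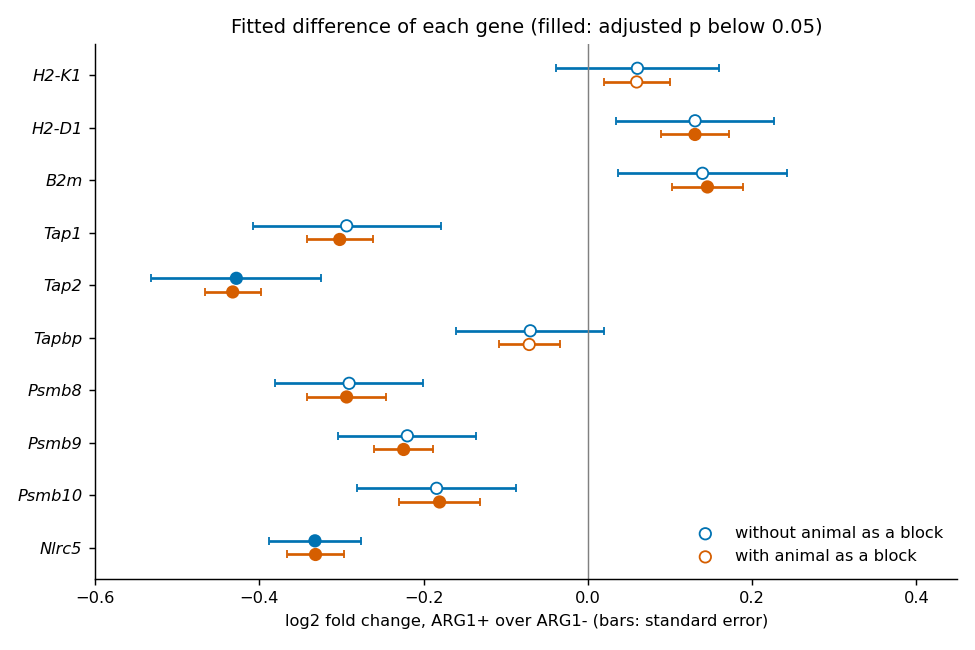
Log2 fold change of each gene, ARG1+ over ARG1-, with its standard error, from the edgeR fits without (blue, upper) and with (orange, lower) the animal as a block, filled where the adjusted p was below 0.05. The estimates of the fits nearly coincide, the bars are shorter with the block, and no estimate passes 0.5 in size.

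The constitutive subunits allowed the immunoproteasome subunits to be set against the subunits they replace, within each library and free of its scaling. Psmb5 stood at 48.6 ± 5.05 CPM in the ARG1+ group against 43.0 ± 6.85 CPM in the other (mean ± SD over 5 libraries), Psmb6 at 144 ± 8.40 and 136 ± 12.1, and Psmb7 at 99.1 ± 9.48 and 107 ± 14.1, with log2 fold changes of 0.17, 0.08 and -0.11. None of these 3 passed the test, with or without the block. The counts of Psmb8 were 8.80, 10.1, 13.4, 10.4 and 10.4 times those of Psmb5 in the ARG1- libraries of m2, m6, m234, m235 and m236, and 6.92, 7.51, 8.77, 7.24 and 7.41 times in the ARG1+ libraries. Each ARG1+ ratio was below every ARG1- ratio. These are ratios of counts between genes of unlike length. Per kilobase of exon, the ratio at the mean log2 was 5.81 in ARG1- and 4.17 in ARG1+ libraries. On the log2 scale the means were 2.92 ± 0.129 and 3.40 ± 0.219, a difference of -0.48 with a p of 0.00794 in a two-sided exact permutation test over libraries, the smallest that 5 against 5 can give, and 0.0238 adjusted over the 3 ratios.

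The log2 ratio of Psmb9 to Psmb6 was -0.56 ± 0.181 in ARG1+ and -0.25 ± 0.131 in ARG1- libraries (SD, n = 5) and was lower in all 5 animals, by 0.24 to 0.41, with overlapping groups (exact permutation p = 0.0238, adjusted 0.0357). This p was 0.0571 without animal m2 or m236 and 0.0857 without m6 or m235, by the same exact permutation test. That of Psmb10 to Psmb7 was 0.87 ± 0.0377 and 0.95 ± 0.105, lower in 4 animals, with an exact permutation p of 0.167. With the animals as pairs, an exact sign-flip test gave 0.0625 for the first 2 ratios, the smallest value 5 pairs allow, so that this form of the test cannot pass 0.05. Psmb5 shared 54.1% of its 50-base stretches with other transcripts, 46.8% with Gm3375, and Psmb7 28.1% with Nek6 on the opposite strand. With the reads of its near copies added to Psmb5, an alternative chosen after the data were seen, the difference in the first ratio was -0.50.

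**Figure D3:**
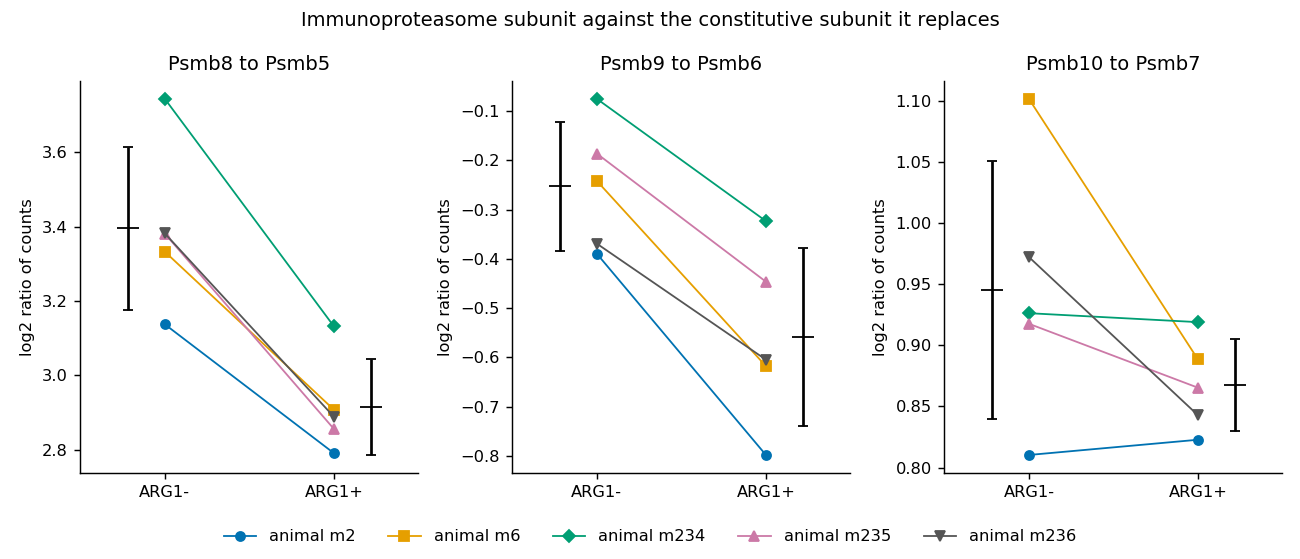
Log2 ratio of the counts of each immunoproteasome subunit to those of the constitutive subunit it replaces, for each library, joined by animal, with the mean and SD of each group (n = 5) in black. The axes are cut to the range of each ratio. The Psmb8 to Psmb5 ratio of each ARG1+ library lies below those of all ARG1- libraries, the Psmb9 to Psmb6 ratio falls along all 5 lines, and the Psmb10 to Psmb7 ratio falls along 4.

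Of the 10 genes, Nlrc5 had the largest difference relative to its standard error in the fit without the block, and Tap2 in the fit with it. It stood at 278.5, 297, 306, 302 and 267 CPM in the ARG1- libraries of m2, m6, m234, m235 and m236, and at 221, 227, 234.4, 247 and 222 CPM in the ARG1+ libraries. Every ARG1+ library lay below every ARG1- library, which held for 5.23% of all genes tested. Nlrc5 averaged 230.3 ± 10.6 CPM in the ARG1+ group against 290.1 ± 16.6 CPM in the ARG1- group (mean ± SD over 5 libraries) and fell by 0.33 on the log2 scale (standard error 0.0563). The adjusted p of Nlrc5 was 0.00343 by edgeR's quasi-likelihood test and 9.11e-05 with the block, and it stayed between 0.00351 and 0.0366 when any library or animal was left out.

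Levels also differed among the animals of a group, in a similar order for most of these genes. In the ARG1+ group, m235 held the highest and m2 the lowest value of all 10 genes, and in the ARG1- group m235 held the highest value of 9 and m2 the lowest of 8. The highest library exceeded the lowest of its group by factors of 1.23 (B2m) to 1.49 (Tap1) in ARG1+ and 1.27 (Psmb9) to 1.43 (Psmb10) in ARG1- cells, leaving Nlrc5 aside. For Nlrc5 these factors were 1.116 and 1.145. As a description over 10 libraries that share 5 animals, the deviations from the group mean correlated most closely between Tap1 and Tap2 (Pearson r = 0.985) and least between B2m and Nlrc5 (r = 0.149).

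**Figure D4:**
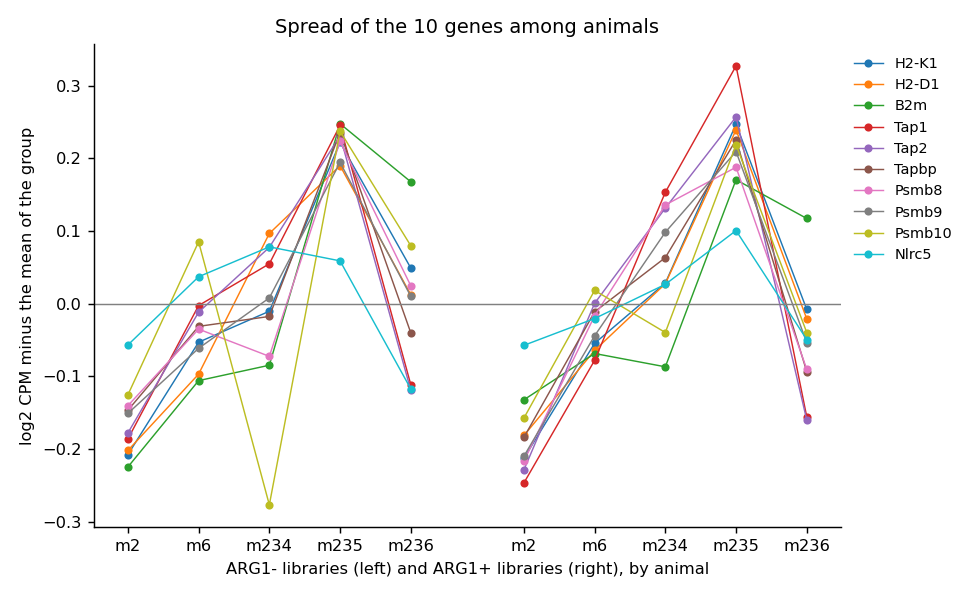
Log2 CPM of each of the 10 genes minus its group mean, by animal, in the ARG1- (left) and ARG1+ (right) libraries. Animal m235 is at the top and m2 at the bottom for nearly all genes in both groups, while Nlrc5 spans a narrower range than the others.

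Outside the 10 genes, those that followed this mean profile of deviations most closely were H2-Q4, a nonclassical heavy chain (r = 0.985), Gm15056 (0.984), Gm9574 (0.978), Tapbpl, a relative of tapasin that edits peptides (0.977), and Ilrun (0.973), each over the same 10 libraries. H2-Q4 reads are uncertain, since 39.2% of its 50-base stretches occurred in other transcripts. Gm9574 also shared stretches with the heavy chains, 1.66% of those of H2-K1 and 1.80% of those of H2-D1. Gm15056 was low, averaging 3.64 CPM in ARG1+ and 4.10 CPM in ARG1- libraries.

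Set against the summed reads of H2-K1 and H2-D1 within each library, the other genes of the pathway showed the split without any scaling of libraries. This measure was chosen after the values had been seen and is given as a description. The log2 ratio to the heavy chains differed, ARG1+ minus ARG1-, by 0.05 for B2m and by -0.17 for Tapbp, -0.27 for Psmb10, -0.32 for Psmb9, -0.39 for Psmb8, -0.40 for Tap1, -0.43 for Nlrc5 and -0.53 for Tap2. For the last 7 it was lower in all 5 animals. H2-K1 and H2-D1 were themselves higher by CPM in ARG1+ cells of all 5 animals (H2-K1 barely so in m236), which lowers these ratios. By CPM, Tapbp and Psmb10 were lower in only 4 animals. The share of all genes lower in all 5 animals by this ratio was not computed. For Tapbp, Psmb9, Psmb8, Tap1, Nlrc5 and Tap2 the libraries of the groups did not overlap, which held in this direction for 4.49% of all genes tested.

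Further genes of the pathway were taken from lists. The constitutive proteasome is described by its other subunits. Of 11 other 20S core subunits 1 was called lower (Psma7, log2 fold change -0.21, adjusted p = 0.0220 by edgeR), and of 17 subunits of the 19S regulatory particle none passed, the most abundant, Psmd2, having a log2 fold change of 0.10, beside 6.15% of all genes called lower. With the block, 3 of the 11 were called lower, and 2 of the 17 were called higher and 2 lower. Of all genes, the block fit called 16.8% higher and 18.3% lower. The medians of these lists were -0.07 and -0.03. Among 9 activators and assembly factors, 1 was called lower without the block and 3 with it. Psme2, named after its values were seen, was lower in all 5 animals (log2 fold change -0.32). Its adjusted p by edgeR was 0.0512, and 3.03e-04 with the block. The gene called without the block was Psme1, which encodes the α subunit of the interferon-inducible PA28 activator. Psme1 averaged 249.96 ± 15.3 CPM in the ARG1+ group against 321 ± 25.2 CPM in the ARG1- group (mean ± SD over 5 libraries), with no overlap, and fell by 0.36 on the log2 scale (standard error 0.0671), with an adjusted p of 0.00579 by edgeR's quasi-likelihood test.

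None of 8 genes for peptide loading and trimming passed the test without the block, and their median was 0.10. Calr, the chaperone calreticulin and the most abundant of them, had a log2 fold change of 0.11. With the block, 2 of the 8 were called higher and 1, Tapbpl, lower, beside 16.8% and 18.3% of all genes. The 2 were the chaperone gene Canx (calnexin) and the peptide-trimming aminopeptidase gene Erap1, named after their values were seen. Of 16 other class I heavy chains, 15 were matched in the table and 14 were tested (median -0.02). None was called without the block, and with it 1 was called higher and 1 lower. H2-Q4, the most abundant, averaged 695 CPM in the ARG1+ group and 696 CPM in the ARG1- group. Of 5 class I related molecules, which present other ligands than peptides or have other roles, 2 were called higher and none lower. Among all genes, 6.82% were called higher and 6.15% lower by the same rule. The median of the 5 was 0.62. With the block, 4 of the 5 were called higher and 1 lower, beside 16.8% and 18.3% of all genes. Mr1, which presents vitamin B metabolites to MAIT cells, rose from 12.6 ± 1.70 CPM in ARG1- to 22.6 ± 2.86 CPM in ARG1+ cells (mean ± SD over 5 libraries), by 0.84 on the log2 scale with an adjusted p of 8.6e-04 by edgeR. Cd1d1, which presents lipids to NKT cells, rose from 30.6 ± 7.25 to 49.96 ± 14.0 CPM, by 0.70 on the log2 scale with an adjusted p of 0.0393.

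Of 15 regulators of class I transcription, 6 were called lower in ARG1+ cells and none higher (median -0.22), and 13 were called lower with the block. The shares of all genes called lower were 6.15% without and 18.3% with the block. The largest falls among those called were those of Rfx5, a subunit of the RFX complex (-0.45, adjusted p = 0.0427 by edgeR), Nfkb1, the p50 subunit of NF-κB (-0.43, 0.00417), and Creb1 (-0.35, 0.0152). Irf8, the most abundant regulator on the list, had a log2 fold change of -0.28 with an adjusted p of 0.0905. Among 7 interferon receptors and kinases, Jak2, a kinase of the interferon-γ receptor, was the 1 called without the block and was lower (164 ± 13.1 against 256 ± 25.1 CPM, log2 fold change -0.64, adjusted p = 4.9e-04 by edgeR), and Jak1 stood at 289 and 291 CPM. With the block, 2 of the 7 were called lower.

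The class II pathway and other interferon-stimulated genes are given for comparison. All 10 class II genes had negative log2 fold changes with a median of -0.56, and 5 were called lower (10 with the block), with the largest falls in H2-Ob (-1.49, adjusted p = 0.0130 by edgeR), H2-Oa (-1.12, 0.0299) and H2-DMb2 (-0.82, 0.00778), subunits of the chaperones that govern class II loading. Cd74, the invariant chain, had a log2 fold change of -0.29 with an adjusted p of 0.268. Of 13 antiviral interferon-stimulated genes, 2 were called lower (12 with the block), Isg15 (-0.89, adjusted p = 0.0420 by edgeR) and Oas2 (-0.67, 0.0322), with a median of -0.64, and the most abundant, Irf7, had a log2 fold change of -0.41. Of 12 interferon-stimulated GTPases and chemokines, 8 were called lower (12 with the block), with a median of -0.57, among them Cxcl9 (-0.69, adjusted p = 0.0383 by edgeR), Igtp (-0.66, 0.0156) and Cxcl10 (-0.62, 8.6e-04), and the most abundant, Gbp2, had a log2 fold change of -0.58. Among all genes, 6.15% were called lower without and 18.3% with the block. The difference between these lists and the 10 class I genes was not tested.

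**Figure D5:**
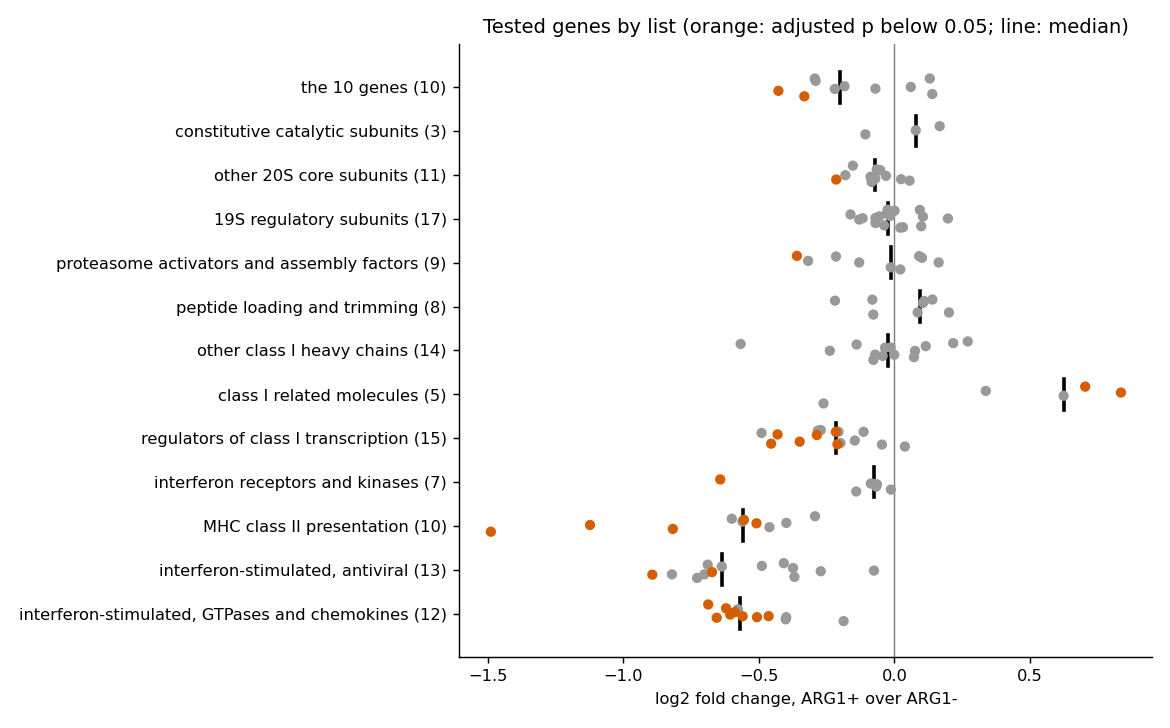
Log2 fold change, ARG1+ over ARG1-, of each tested gene by list (number of genes in brackets), in orange where the adjusted p without the block was below 0.05, with the list's median as a black line. The 10 genes have a median of -0.20, between the medians of the other proteasome lists near 0 and those of the class II and interferon-stimulated lists, at -0.56, -0.64 and -0.57.

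Markers of other cells differed between the groups beside these results. Of 10 dendritic cell markers 7 were tested and 6 were called lower in ARG1+ cells, beside 6.15% of all genes. The tested marker not called was Clec9a, the most abundant of the list, with a log2 fold change of 0.28. Clec9a averaged 13.9 CPM in ARG1+ and 11.8 CPM in ARG1- libraries and so made up much of the list's sum. That sum was 11.6 to 27.7 CPM in ARG1+ and 25.3 to 48.2 CPM in ARG1- libraries. Xcr1 and Cd209a stayed below 1 CPM throughout. The 8 microglia markers summed to 753 to 1126 CPM in ARG1+ and 810 to 2655 CPM in ARG1- libraries. None of them was called without the block, and 6 were called lower with it, beside 18.3% of all genes. The 6 markers of border-associated macrophages summed to 49.9 to 133 CPM and 18.7 to 55.7 CPM, with 2 called higher (Mrc1 and Pf4) and Cd163, Lyve1 and Folr2 below 1 CPM. The 8 markers of monocytes and macrophages summed to 12517 to 17651 CPM and 11370 to 13896 CPM, a sum made up mostly of Lyz2, and moved in different directions. Lyz2 (log2 fold change 0.65) and Itgam (0.35) were called higher and Ccr2 (-1.12) lower. With the block 3 were called higher and 5, Cx3cr1 among them, lower, beside 16.8% and 18.3% of all genes. T cell markers were all below 1 CPM in every library, as were Cd79a, Ms4a1 and Pax5 of B cells. Of the 2 B cell markers tested, Cd22 was called higher, at 58.4 ± 7.26 CPM in the ARG1+ group against 28.1 ± 5.97 CPM in the ARG1- group (log2 fold change 1.07, adjusted p = 4.8e-04 by edgeR), and Cd79b averaged 2.14 and 2.25 CPM. The marker genes in this paragraph were named after their values were seen. The part of the dendritic cell, microglia, macrophage and B cell markers in the differences of the 10 genes was not tested.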

How the data were processed

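RNA of sorted spinal cord cells was sequenced by the authors as 50-base single-end reads from directional libraries. Per the study's methods and the submitters' processing notes, reads were aligned with STAR (2.7.10b) to GRCm38, and the authors counted them over the basic Ensembl release 100 annotation in union mode, transcripts being summed to genes. The deposited values are raw counts per gene, with no normalization. No source used here states whether counting used strand.

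Groups and animals were taken from the sample titles. Counts of the 55487 genes were filtered at CPM above 1 in at least 3 libraries, as in the study, and the 13740 genes left, with 99.8% of counts, were tested with edgeR 4.0.16 (quasi-likelihood test, TMM library sizes) in R 4.3.3, with Benjamini-Hochberg adjustment. Standard errors were derived from the fold change and its F statistic. CPM were computed on TMM library sizes, and log2 CPM with an offset of 0.5 counts. Ratios were compared by exact permutation over libraries. P-values without the block, those of the permutation test included, were set against the spread between libraries and did not use the pairing. Permutation treated the 10 libraries as exchangeable, although they came from 5 animals. P-values with the block, and those of the sign-flip test, were set against the spread of the differences within animals. DESeq2 1.42.0, limma 3.58.1 and other settings were run as alternatives. On simulated counts (13615 genes) modelled on this comparison, edgeR without the block recovered 84 of 99 genes changed by 0.75 and 98 of 100 changed by 1.5 on the log2 scale, with 11 false calls. DESeq2 made 44 false calls on the same counts. The simulated libraries were drawn independently, with no effect of the animal. No change as small as those of the 10 genes (at most 0.43) was simulated, so recovery at that size is not known.

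Same-numbered libraries come from the same animal per the titles, and their deviations from the group means correlated at r = 0.361 to 0.660 over the genes tested, against -0.368 to 0.0672 between animals, so that the numbers pair the samples.

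The 10 genes and all lists were chosen with earlier results of these data known. From each list other than markers, the text names the most abundant tested gene and up to 3 called genes per direction with the largest fold change. Shared 50-base stretches, exon lengths and overlaps were taken from the GENCODE M21 basic annotation (GRCm38), and upstream sequences from RefSeq (GRCm38.p6). Gene positions are those of the deposited table.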

Additional observations from a re-analysis of the deposited data

How the results depend on the processing

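Of the 10 genes, 2 were called lower in the fit without a block (Tap2 and Nlrc5). The count was 6 with the replicate block, by edgeR as well as limma-trend, 4 with total counts as library sizes, and 0 with the limit of 1 log2 unit added. No gene was called higher except 2 by edgeR with the replicate block (H2-D1 and B2m). The number called lower ran from 1 to 5 when a library or an animal was left out. A count of 1 came from leaving out ARG1+ m2 or animal m2, m6 or m236, and a count of 5 from leaving out ARG1+ m235. The log2 fold change of H2-K1 ran from -0.00629 (without ARG1+ m235) to 0.125 over these omissions and never passed the test. The difference in the log2 ratio of Psmb8 to Psmb5 (-0.48) ran from -0.545 to -0.393 over these omissions, that of Psmb9 to Psmb6 (-0.31) from -0.364 to -0.246, with an exact permutation p of 0.0571 without animal m2 or m236 and 0.0857 without m6 or m235, and that of Psmb10 to Psmb7 (-0.08) from -0.112 to -0.0389, with an exact permutation p of 0.0238 without the ARG1- library of m2. The paired (replicate block) form of the first 2 differences had the values -0.480 and -0.306 and an exact p of 0.0625, the smallest possible. Among all genes, 937 were called higher and 845 lower, against 701 and 1282 with total counts, which moved the median of all genes to -0.0427, 1276 and 1307 by DESeq2, 2307 and 2519 by edgeR with the replicate block, and 360 to 1037 and 284 to 911 when a library or an animal was left out. DESeq2, limma-trend, other library sizes and other filters changed the direction of no fitted difference among the 10 genes. Within animals, total counts as library sizes reversed the sign of H2-K1 in m2 and m236. Where a call changed, the cause was not tested.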
